A study of Mus musculus with 5 samples.

Results

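Gata6 binding in the mouse pancreas was recorded as a list of 7737 peaks, and 797 of them lay in local groups of 3 or more. These 797 peaks formed 223 groups and made up 10.4% of the 7680 peaks on the 19 autosomes. The members were chosen by position: peak midpoints were sorted along each autosome, neighbours at most 10 kb apart were joined, and every group with at least 3 peaks was kept. The same measured positions therefore fixed how many groups there were and how close their peaks stood, and those values are given as a description without a test. The remaining autosomal peaks were 1434 peaks in 717 pairs and 5449 single peaks, which had no other midpoint within 10 kb.

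The peaks came from chromatin immunoprecipitation and sequencing (ChIP-seq) of pancreas from wild-type C57BL/6 mice. The mice were 5 weeks old for 2 of the 4 Gata6 libraries and 14 weeks old for the other 2, and 1 further library held pooled input DNA. Whole pancreas was used, so the binding of all its cell types is summed, and the sources do not say whether a library held more than 1 animal. The list gives each peak's chromosome, start and end in the mouse genome build mm9 and no value for a single library, so no age could be compared, sequencing depth is unknown and no spread between animals can be given.

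Gata6 belongs to the zinc-finger transcription factors and recognises short DNA sequences with the core letters GATA. In the pancreas it acts together with its relative Gata4 during development of the organ, and in the adult it helps keep the enzyme-secreting acinar cells in their differentiated state. Transcription factors often bind a promoter and several enhancers of the same gene, and a locus with many regulatory elements can then carry several peaks within a short distance. The peaks below were not set against genes or DNA sequence, because no mm9 annotation or sequence was used here, so groups are named by position and cytogenetic band.

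The largest group lay on chromosome 15 in band qF1, at 100503931 to 100529135, and held 13 peaks over 25.2 kb. From its left end to its right end the peaks measured 916, 1126, 872, 350, 418, 1454, 3497, 1896, 2627, 1349, 755, 680 and 3231 bp. It thus joined some of the widest peaks of the list with some well below the autosomal median of 729 bp. The peaks covered 76.1% of the span, and 8 of the gaps between facing edges were at most 500 bp long. The longest gap, 3084 bp, separated the first 9 peaks from the last 4. If peaks with edges at most 500 bp apart are counted as 1 region, the group held 5 regions, and with edges at most 2 kb apart it held 2. The nearest peak outside it was 41.0 kb away.

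Chromosome 4 band qE1 held a close succession of groups. The first, at 141369407 to 141384569, had 6 peaks of 2209, 3995, 2097, 469, 1109 and 1145 bp that covered 72.7% of 15.2 kb. Its leading peaks of 2209 and 3995 bp were only 16 bp apart, and all of its gaps were shorter than 2 kb. The second, at 141395529 to 141423825, had 9 peaks of 541 to 1723 bp that covered 32.8% of 28.3 kb. Between both groups lay 10959 bp without a peak, so that 15 peaks stood within 54.4 kb. Despite their nearness they differed in build: the first was mostly covered by peaks, with a widest gap of 1432 bp. The second was spread out, with a widest gap of 8329 bp.

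**Figure D1:**
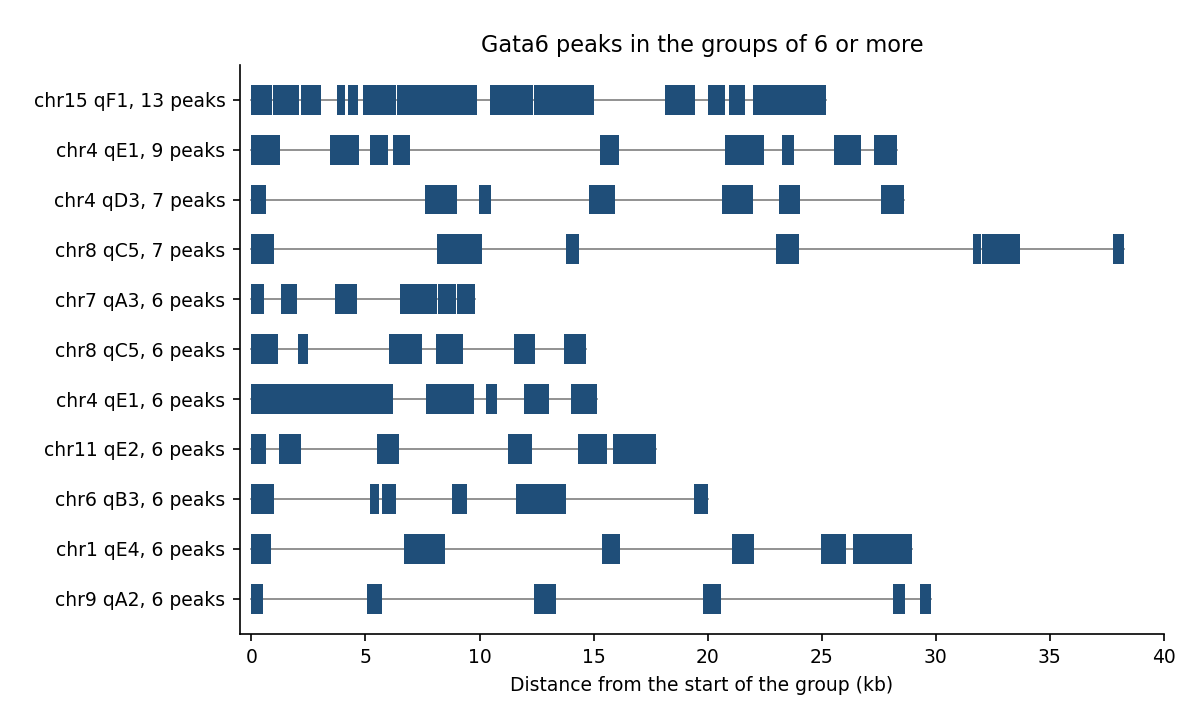
Each row is 1 of the 11 groups with 6 or more Gata6 peaks, drawn to scale from the start of the group (horizontal axis, kb), with filled boxes for peaks and a line for the span. The groups on chromosome 15 and chromosome 4 qE1 with 13 and 6 peaks are mostly filled (76.1% and 72.7%; boxes a few bases apart appear joined), while the 7 peaks of chromosome 8 fill 18.4% of 38.2 kb.

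Groups with 7 peaks occurred at 2 places. On chromosome 4 band qD3, at 136965400 to 136993996, the peaks measured 642, 1384, 533, 1111, 1334, 903 and 1011 bp, and no gap between their edges was under 968 bp. With 28.6 kb it was about as long as the 9-peak group of band qE1, and merging edges within 500 bp left all 7 peaks apart. On chromosome 8 band qC5, at 96878165 to 96916414, the 7 peaks measured 1006, 1945, 548, 1012, 359, 1684 and 497 bp and were spread over 38.2 kb, the longest span of the 223 groups. Its closest peaks, of 359 and 1684 bp, were 18 bp apart, while its longest gap was 8641 bp.

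The same band of chromosome 8 carried a group of 6 at 96696484 to 96711128. Its peaks measured 1161, 425, 1477, 1162, 935 and 958 bp over 14.6 kb. The stretch of 167 kb between this group and the 7-peak group held no peak, and no other peak lay within 100 kb of the centre of either. The 13 peaks of this band portion therefore stood as 2 separate islands. On chromosome 4 qE1, by contrast, 10 other peaks lay within 100 kb of the centre of the 6-peak group, and 8 within that distance of the centre of the 9-peak group. Most of these were peaks of the other group, 9 of the 10 and 6 of the 8.

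Another 5 groups held 6 peaks. The most compact of these lay on chromosome 7 band qA3 at 29321809 to 29331619, with peaks of 552, 676, 965, 1634, 779 and 779 bp in 9811 bp. All of its gaps were under 2 kb, so it became 1 region when edges within 2 kb were merged. On chromosome 11 band qE2, at 115688572 to 115706289, widths ran from 656 to 1886 bp, and the widest peak was the last. On chromosome 6 band qB3, at 51270494 to 51290486, a peak of 2177 bp stood among peaks of 405 to 995 bp, which made it 2.19 times as wide as the next. On chromosome 1 band qE4, at 135967775 to 135996750, the widest peak, of 2604 bp, again closed the group, and no other peak lay within 100 kb of its centre. The last of them, on chromosome 9 band qA2 at 15297483 to 15327248, consisted of peaks of 468 to 977 bp that covered 13.1% of 29.8 kb. It was also far from all other binding, with the nearest outside peak 804 kb away. Among the 11 groups with 6 or more peaks, all 11 kept at least 3 regions after merging edges within 500 bp, and 8 did so after merging edges within 2 kb.

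Most groups were small. Of the 223, 151 (67.7%) held 3 peaks, 39 held 4, 22 held 5, 7 held 6, 2 held 7, 1 held 9 and 1 held 13. The 33 groups of 5 or more peaks contributed 188 of the 797 members. Spans ran from 2102 to 38250 bp with a median of 10585 bp, and the median span was 9214 bp for groups of 3, 11489 bp for groups of 4 and 17267 bp for groups of 5. Peaks filled a median of 27.8% of the span, and the median differed little by size, with 27.7% in groups of 3, 28.4% in groups of 4, 24.5% in groups of 5 and 32.8% in groups of 6 or more. Only 45 groups were more than 50% covered. In total the groups spanned 2573 kb, or 0.104% of autosomal length, and their peaks covered 738.7 kb, which was 11.8% of the bases covered by all autosomal peaks.

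**Figure D2:**
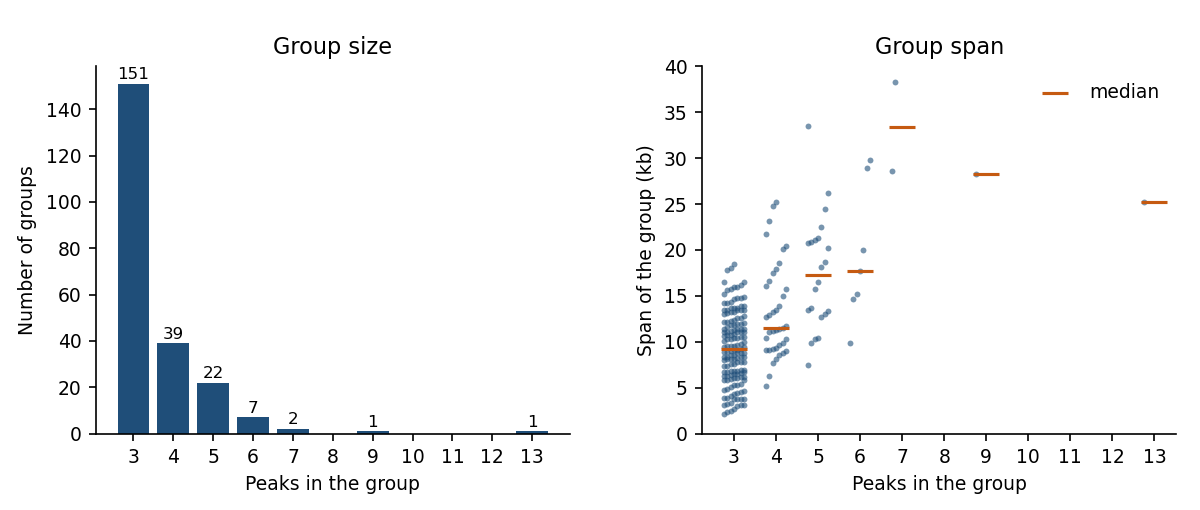
Left, number of groups (vertical axis) by the number of Gata6 peaks they hold. Right, span of each group in kb against its number of peaks, 1 point per group, with short horizontal lines for medians; groups of 3 have a median span of 9214 bp, and points within a size are shifted sideways only for legibility.

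The most compact group of 3 lay on chromosome 15 band qB3.1 at 38496776 to 38498877, where peaks of 533, 425 and 966 bp were 48 and 130 bp apart and filled 91.5% of 2102 bp. The longest group of 3 lay on chromosome 9 band qF1 at 107561828 to 107580244. It was built differently, with peaks of 1831, 1895 and 2183 bp set 6206 and 6302 bp apart. All 3 of these were wide, whereas none of the compact group reached 1 kb. The thinnest cover, 9.38%, was found for a group of 3 on chromosome 3 at 116223493 to 116239988.

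Within groups, neighbouring peaks were often much closer than the 10 kb that the joining rule permits. The 574 gaps between neighbouring midpoints had a median of 3470 bp and quartiles of 1722 and 6344 bp, against a median of 3988 bp over the 717 pairs. The share of gaps fell from 31.0% in the first 2 kb to 24.9%, 16.7%, 14.6% and 12.7% in the following steps of 2 kb. Measured from edge to edge, the median gap in groups was 2474 bp, and the shortest was 2 bp. Edge gaps of at most 500 bp made up 21.1% of gaps in groups (121 of 574) and 19.2% in pairs (138 of 717), and those of at most 2 kb made up 44.4% and 38.6%. At least 1 edge gap of at most 500 bp occurred in 92 groups, and 60 groups had no edge gap of at most 2 kb.

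How many separate regions the groups represent depended on this spacing. When edges within 500 bp were joined inside each group, 164 of 223 groups (73.5%) still held 3 or more regions. With edges within 2 kb joined, 95 groups (42.6%) held 3 or more regions, 96 held 2 and 32 became 1 continuous region. Whether such close peaks are separate binding events or parts of 1 enriched stretch was not tested, since the list carries no signal between them.

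Gaps within groups of 3 were set against each other. The longer of the gaps was a median of 2.21 times the shorter, and in 81 of 151 groups it was at least 2 times as long. Examples ranged from the evenly spaced group on chromosome 2 at 26080536 to 26098544, with midpoint gaps of 8650 and 8659 bp, to a group in which the gaps differed 16.4-fold.

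The extent of some groups depended on the exact limit. In 31 groups the longest midpoint gap was over 9 kb, the largest of all being 9993 bp. Not all of these would be lost under a limit of 9 kb. The 9-peak group of chromosome 4, for example, would split into parts that each still hold 3 or more peaks. Outside the limit, 25 of 717 pairs had another peak between 10 and 11 kb away and just failed to become a group, the nearest at 10040 bp. Peaks of these borderline groups had a median width of 796 bp (n = 118), and peaks of the borderline pairs also had a median of 796 bp (n = 50).

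Peaks in groups had a greater median width than single peaks. It was 817 bp with quartiles of 597 and 1127 bp (n = 797), against 760 bp (560 to 1040 bp, n = 1434) in pairs and 707 bp (521 to 966 bp, n = 5449) for single peaks. The distributions overlapped over most of their range, and the difference of medians between groups and single peaks was 110 bp. That difference is a description of 1 list and was not tested, since widths come from the same peaks that the rule used and peaks of 1 group share their locus. With the limit set to 5 kb the difference was 182 bp, and with lines 1 to 3868 of the list regrouped alone it was 42.5 bp. In that regrouping the order of groups and pairs turned, with medians of 822 bp in groups and 844 bp in pairs.

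Very wide peaks were also a larger share of the members. Peaks over 2 kb made up 27 of 797 group peaks, or 3.39% (exact 95% interval 2.24 to 4.89), beside 1.67% over all autosomal peaks, 2.37% in pairs (1.65 to 3.30) and 1.23% of single peaks (0.954 to 1.56). Of the 27 wide group peaks, 6 lay in only 2 groups, given below by group size. Intervals here reflect only counting error and assume independent peaks, so they are too narrow for peaks that share a group. At the other end, 16.6% of group peaks were at most 500 bp wide (14.0 to 19.3), beside 21.0% over all autosomal peaks, 18.1% in pairs (16.1 to 20.2) and 22.4% of single peaks. The intervals of groups and pairs overlapped for both wide and narrow peaks. Groups held 24 of the 100 widest autosomal peaks and 5 of the 10 widest.

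The widest of all stood at the right end of a group of 4 on chromosome 2 band qA3, at 28409567 to 28420934. The peaks there measured 1810, 1025, 1146 and 6367 bp, with gaps of 126, 830 and 64 bp. On chromosome 15 band qE1, at 78673497 to 78683375, wide peaks formed both ends of a group, in the order 3712, 1351, 907 and 3394 bp, with gaps of 97, 4 and 414 bp. On chromosome 19 band qA, at 5839683 to 5849373, a peak of 3038 bp lay next to peaks of 406, 959 and 1944 bp. The 3 groups spanned 9691 to 11368 bp, between the lower quartile of 9279 bp and the median of 11489 bp for groups of 4. Their spans were thus not unusually short. In each, the widest peak had a neighbour's edge within 500 bp on at least 1 side.

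**Figure D3:**
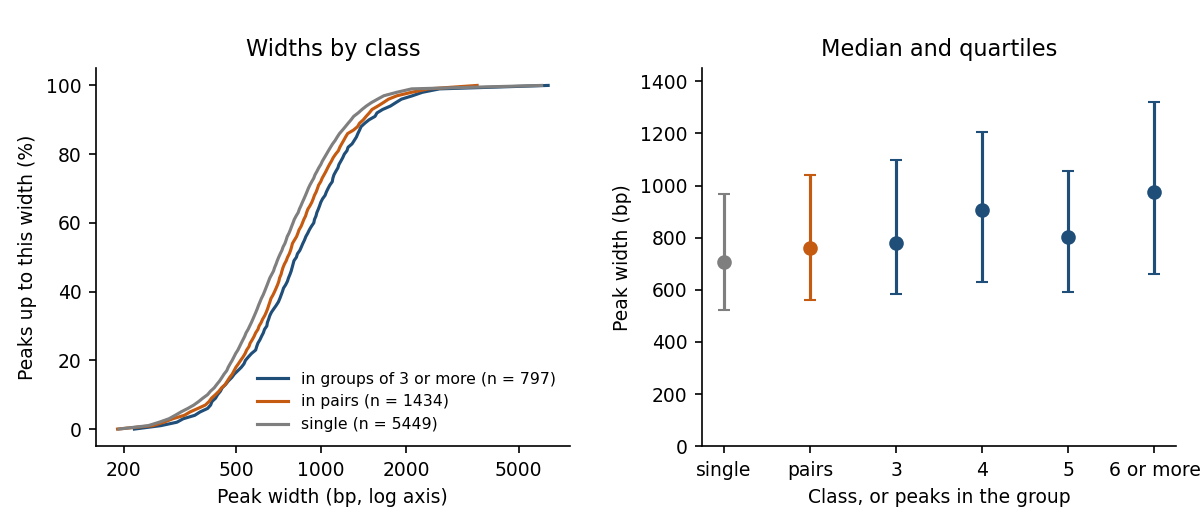
Left, cumulative percent of Gata6 peaks (vertical axis) up to a given width in bp (horizontal axis, log scale), drawn at whole percentiles, for peaks in groups, in pairs and single. Right, medians (points) with lower and upper quartiles (bars) by class and by the number of peaks in a group; medians run from 707 bp for single peaks to 977 bp in groups of 6 or more, and the quartile ranges overlap throughout.

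By group size, the median width was 778 bp in groups of 3, 908 bp in groups of 4, 801 bp in groups of 5 and 977 bp in groups of 6 or more, so it did not increase at every step. No peak over 2 kb occurred among the 110 peaks of groups of 5, which allows a share of up to 3.30%, while 8 of 78 peaks in groups of 6 or more were that wide. Of these 8, 3 lay in the 13-peak group of chromosome 15 and 3 in the 6-peak group of chromosome 4 qE1. The other 9 groups held 2 among 59 peaks, or 3.39% (0.413 to 11.7). The share over all members, also 3.39%, still counts the 6 wide peaks of the 2 groups left out here. Without the 2 largest groups the median over all members was 811 bp. Taking each group as 1 unit, the median of the groups' median widths was 816 bp.

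Distance to a neighbour's edge was set beside width. Members with another edge within 2 kb had a median of 842 bp (n = 438) and those with no edge so close a median of 795 bp (n = 359). In pairs the order was the opposite, with 740 bp (n = 554) and 774 bp (n = 880). Group peaks without a close edge were thus also above the single-peak median of 707 bp. Across the 574 neighbouring couples in groups, mean width and midpoint gap showed a Spearman rho of 0.04, given as a description of couples that share peaks.

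Members of a group differed in width among themselves. The widest peak was a median of 2.04 times as wide as the narrowest and 1.27 times as wide as the second widest, and in 21 of 223 groups it was at least 2 times the second. Widths of direct neighbours were weakly alike, with a Spearman rho of 0.25 over 574 couples in groups and 0.29 over 717 pairs. In 50 groups (22.4%) every peak was wider than the autosomal median of 729 bp, and in 29 (13.0%) every peak was narrower. The other groups met neither condition. The shares for sets of peaks drawn at random from the list were not computed.

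The widest peak had no preferred place. In the 151 groups of 3 it came first along the chromosome in 49, in the middle in 51 and last in 51. Median widths by place were 758, 795 and 775 bp, and their quartile ranges overlapped, from 569 to 1100 bp for the first place, 614 to 1072 bp for the middle and 558 to 1118 bp for the last. In groups of 3 the narrowest peak had a median of 588 bp and the widest a median of 1102 bp.

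Groups were found on every autosome, but in different number. Chromosome 11 had the most, 25 groups with 90 peaks, followed by 17 each on chromosomes 4 and 5 and 16 each on chromosomes 2 and 8. Chromosomes 18 and 19 had the fewest, with 5 each. Per length this gave 20.5 groups per 100 Mb on chromosome 11 and 13.5 on chromosome 15, down to 4.39 on chromosome 3.

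Relative to the peaks present, chromosome 15 stood first. There 59 of 347 peaks lay in groups, or 17.0% (exact 95% interval 13.2 to 21.4), and 13 of these 59 formed the single 13-peak group. The first place of chromosome 15 thus rested in large part on 1 locus. Next came 14.9% on chromosome 8 (11.6 to 18.7) and 13.9% on chromosome 11 (11.3 to 16.8). The lowest shares were 5.83% on chromosome 13 (3.55 to 8.95), 6.16% on chromosome 9 (4.06 to 8.90) and 6.42% on chromosome 3 (4.15 to 9.40), against 10.4% over all autosomes. Neighbours in this order had overlapping intervals. These intervals assume independent peaks and are too narrow, since grouped peaks come in sets of 3 or more. The share did not follow peak density: over the 19 autosomes its Spearman rho with peaks per Mb was 0.06, a description in which both measures share the peak number. Chromosome 19, with 4.63 peaks per Mb, had 7.39% of its peaks in groups, and chromosome 14, with 2.17 per Mb, had 13.2%.

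**Figure D4:**
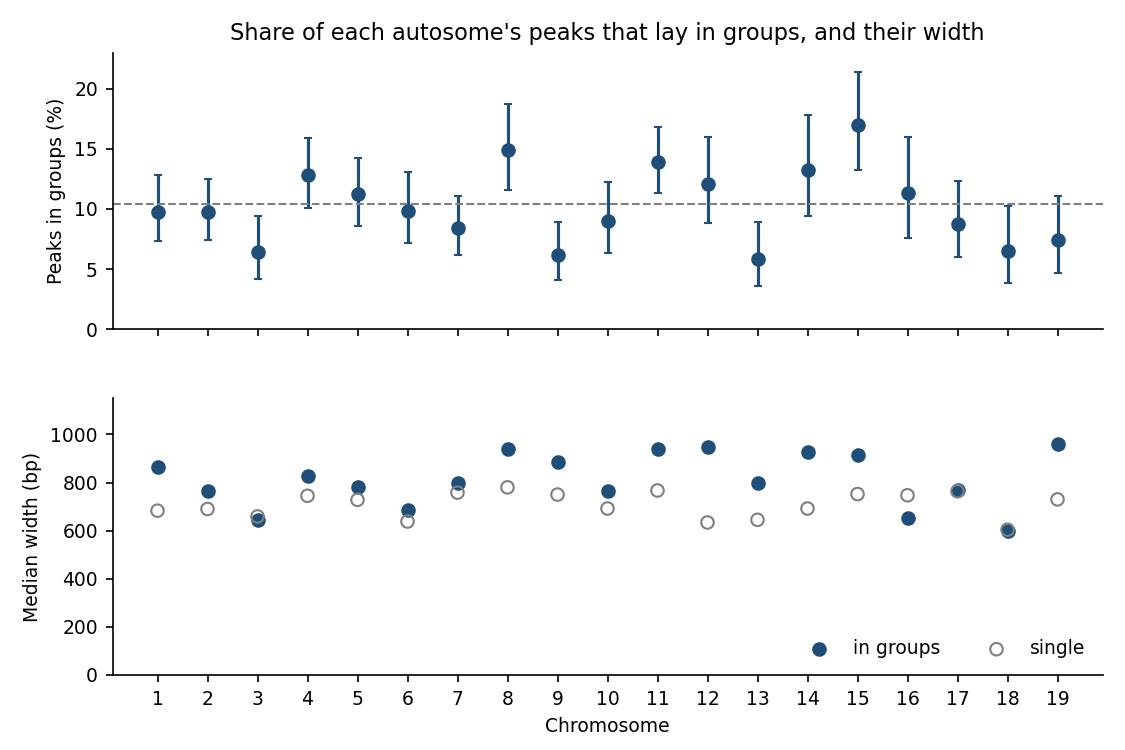
Top, percent of each autosome's Gata6 peaks that lay in groups (points) and the value over all autosomes, 10.4% (dashed line). Bars are exact 95% intervals that assume independent peaks, so they are too narrow for grouped peaks. Bottom, median width in bp of peaks in groups (filled) and single peaks (open) on each autosome; the filled point is higher on 16 of 19 autosomes.

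The difference in width was also seen chromosome by chromosome. The median in groups was above that of single peaks on 16 of 19 autosomes and below it on chromosomes 3, 16 and 18. The largest difference was 314 bp on chromosome 12 (948 against 634 bp), and the most negative was -96.0 bp on chromosome 16 (651 against 747 bp). Chromosomes 17 and 18 showed next to none, with differences of 3.0 and -7.0 bp.

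Cytogenetic bands, which the rule did not use, were occupied by groups much as by other peaks. Bands that do not stain, in general rich in genes and early in replication, held 377 of 797 group peaks, or 47.3% (exact 95% interval 43.8 to 50.8), beside 48.2% over all autosomal peaks. The darkest bands, in general poor in genes, held 151 members, or 18.9% (16.3 to 21.8), beside 20.7% over all autosomal peaks. Both shares were near those of all peaks. As parts of autosomal length these classes made up 41.2% and 31.2%.

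Of 369 autosomal bands, 134 held at least 1 group. Band qA3.3 of chromosome 17, at 21851526 to 31466196, held the most, with 7 groups and 21 grouped peaks among 105. All of these groups had 3 peaks, as did every group of chromosome 17. Band qE2 of chromosome 11 followed with 6 groups and 23 grouped peaks, and band qF of chromosome 5 had 6 groups and 20. Band qF1 of chromosome 15, with its 13-peak group, held 2 groups in all, and band qE1 of chromosome 4, with its groups of 9 and 6, held 3.

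Outside their own limits, groups had more peaks nearby than single peaks had. The nearest outside peak was a median of 33.6 kb away for groups, 41.7 kb for pairs and 61.6 kb for single peaks. It lay within 20 kb for 69 of 223 groups (30.9%), for 26.4% of pairs and for 17.6% of single peaks. These distances start at the outermost midpoints of a group and come from the same positions as the joining rule, so no test was made. At the other extreme, 40 groups had no outside peak within 100 kb. The most isolated, 4 peaks of 377, 630, 769 and 406 bp on chromosome 5 band qB3 at 50440218 to 50451242, was 1392 kb from any other peak.

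A few groups stood next to each other. The nearest other group was a median of 1730 kb away, but 33 groups had another within 100 kb and formed 16 regions. Only 1 region joined 3 groups, on chromosome 11 band qD at 93994670 to 94059029, with 10 peaks in 64.4 kb. On chromosome 19 band qD2, groups of 5 peaks each at 58741011 to 58754728 and 58819086 to 58837170 lay 64.4 kb apart, with 3 further peaks between them. In the first the peaks measured 1268, 1165, 470, 722 and 780 bp, and in the second 669, 554, 598, 731 and 1304 bp. On chromosome 8 band qE1, groups of 5 and 3 peaks together spanned 37.0 kb at 124818045 to 124855036. Peaks of the 33 adjoining groups had a median width of 913 bp (n = 130) and those of all other groups 800 bp (n = 667).

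The order of lines in the list is a further measure that the rule did not use. Its meaning is not given in the sources used here, so it is reported only as a position. The list starts with a run of 90 lines sorted by chromosome and start. Of these 90 peaks, 25 (27.8%, exact 95% interval 18.9 to 38.2) lay in groups, against 10.2% (9.50 to 10.9) of autosomal peaks on all later lines. They came from 17 groups, and 5 of them were peaks of the 13-peak group on chromosome 15, on lines 31 to 35. Another 3, on lines 67 to 69, belonged to the 6-peak group of chromosome 4 qE1. Without the peaks of these 2 groups, 17 of the remaining 82 peaks (20.7%, 12.6 to 31.1) were in groups. Group peaks of this first run had a median width of 1344 bp, against 1059 bp for its 19 peaks in pairs and 1040 bp for its 46 single peaks. Without the same 2 groups the median of the other 17 was 1175 bp, and the difference from single peaks was 135 bp.

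Over the whole list the gradient was shallow. In 5 successive blocks of lines, 11.8%, 11.2%, 11.1%, 9.62% and 8.16% of autosomal peaks lay in groups. Lines 1 to 3868 held 440 of 797 members, or 55.2% (51.7 to 58.7), beside 50.0% over all autosomal peaks. In each block the median width in groups was above that of single peaks, from 801 against 774 bp in the second block to 792 against 648 bp in the fourth. Width was lowest in the last block in every class, at 665 bp in groups, 676 bp in pairs and 598 bp for single peaks.

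**Figure D5:**
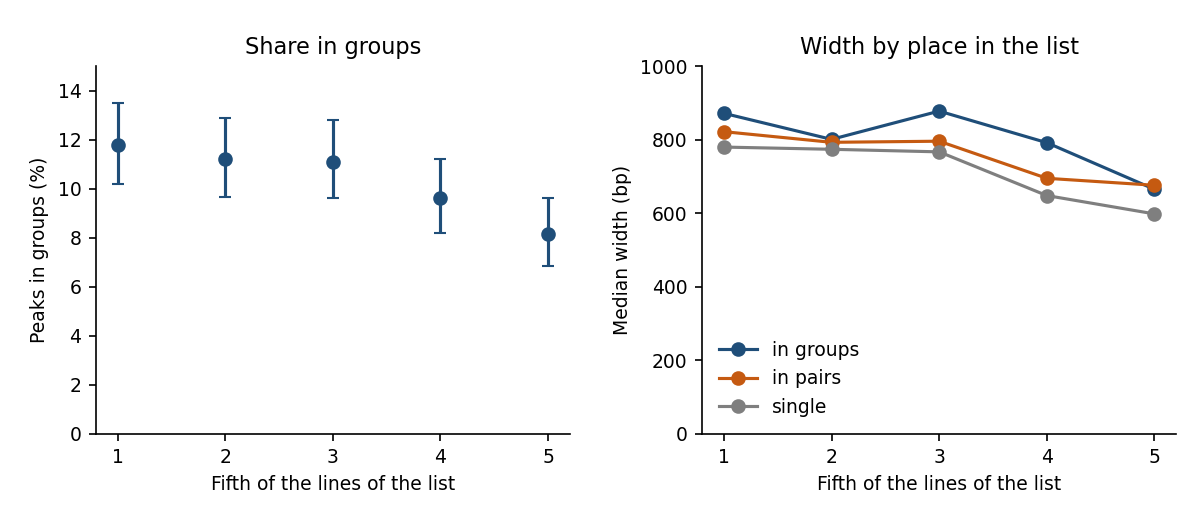
Left, percent of autosomal Gata6 peaks that lay in groups (points) in 5 successive blocks of lines of the list. Bars are exact 95% intervals that assume independent peaks. Right, median peak width in bp in the same blocks for peaks in groups, in pairs and single; the value for groups is above that for single peaks in all 5 blocks, and above that for pairs in all but the last.

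Place in the list was also set beside width within groups. In groups of 3, the peak listed first had a median width of 808 bp, the second 789 bp and the third 729 bp. The first-listed peak was also the widest in 56 of 151 groups of 3, or 37.1% (exact 95% interval 29.4 to 45.3). It was the wider in 391 of 717 pairs, or 54.5% (50.8 to 58.2). An order of lines unrelated to width would list the widest peak first as often as at any other place. No test against such an equal share was made. Over the whole list, median width was lowest in the last block of lines in every class, as given above. Whether line order follows width within groups or pairs was not tested.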

How the data were processed

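The authors deposited 1 peak list for the series, with chromosome, start and end in base pairs of mm9 and no header. Per the submitters' processing notes, the build was mm9, and the tools CASAVA 1.8 and BWA 0.5.9-r16 were used in steps that the notes do not name. The sources used here name no peak caller and no pooling. The name of the deposited list carries the label FDR1, whose meaning as a threshold is not given. The list was treated as pooled over all the Gata6 libraries, which is an assumption. Where the caller split or joined enriched stretches, the numbers of peaks per group carry that choice.

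Starts, read as 0-based, are given 1-based. Autosomal peaks were joined as stated above, and edge gaps count the bases between facing edges. Bands of mm9 came from circlize 0.4.16 and lengths from GenomeInfoDb 1.38.1 in R 4.3.3. All else ran in Python 3.11.15 (pandas 2.3.3, numpy 2.4.6, matplotlib 3.10.9, scipy 1.17.1). Intervals are exact Clopper-Pearson 95% intervals. Those over peaks assume independent peaks and are too narrow where peaks share a group. The joining was tested on simulated data. The members and all lists and measures were chosen with earlier results of these data known. Groups named were the 10 with the most peaks, the longest, and the most compact of 3. Others were named after their values were seen. Planned counts of motifs, gene lists and positions against genes were not run, because the gene table and promoter sequences at hand describe GRCm38.p6 and positions were not converted between builds.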

Additional observations from a re-analysis of the deposited data

How the results depend on the processing

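Groups were recounted under 6 alternatives and, as another chosen after seeing the data, on lines 1 to 3868 alone. A limit of 5 kb gave 104 groups with 361 peaks (4.7%), a median width of 899 bp and 182 bp over single peaks. With 20 kb there were 402 groups with 1512 peaks (19.7%), the largest of 16 peaks on chromosome 4 at 141352012 to 141423825. Distances between facing edges put 11.3% of peaks in groups. Merging edges within 500 bp first put 7.47% of regions in groups. Merging within 2 kb left 90 groups with 301 regions (4.21%), fewer than the 95 counted inside groups because merging shifts midpoints. The largest group then had 7 regions with 500 bp and 6 with 2 kb, and was no longer that of chromosome 15. Thinner lists hold fewer groups by construction: the wider 3833 peaks gave 79 groups with 281 peaks (7.33%) and a median of 1108 bp, and lines 1 to 3868 gave 61 groups with 208 peaks (5.41%) and 42.5 bp over single peaks. When those lines were regrouped alone, pairs had a greater median width (844 bp) than groups (822 bp), unlike under the other 6 alternatives. With classes taken from the whole list, groups had the greater median in lines 1 to 1548 (872 against 822 bp). They also had it in lines 1549 to 3096 (801 against 793 bp). The cause was not tested. Peaks in groups had a greater median width than single peaks under all 7 alternatives. All 7 used the same list, and merging edges widens regions by construction, so they are not independent of each other. Leaving out a library was not possible. No paired analysis was possible because no value belongs to a single library. Unknown depth limits which weaker peaks could join a group.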

Other observations

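The X chromosome, which the grouping left out, held 53 peaks, and no 3 of them formed a group under the same limit. Another 4 peaks lay on neither an autosome nor the X chromosome and were not grouped.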
